A study of Homo sapiens with 96 samples.

Results

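HaCaT cells carrying an activated HRAS construct were compared with HaCaT cells carrying the empty vector, both after transfection with a scramble siRNA and without any EGFR inhibitor. HaCaT is a spontaneously immortalised human keratinocyte line. The comparison took every array labelled with the scramble siRNA and with no drug or PBS treatment in these lines, which gave 3 arrays of HaCaT-HRAS and 3 of HaCaT-Mock, 6 of the 96 arrays of the series. The series asks how alterations in the EGFR, RAS and PI3K pathways shape the response of keratinocytes to EGFR inhibition, and this comparison gives the state of the HRAS cells before any inhibition. The arrays are Affymetrix U133 Plus 2.0 arrays of total RNA, and all values below are deposited log2 expression values per probe set.

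HaCaT-HRAS carries overexpressed HRASVal12D, as the labels write it, and HaCaT-Mock the control empty vector. Both were made with a lentiviral vector in which a CMV promoter drives the insert, and cells were selected with puromycin. The sources used here do not state whether a line is 1 clone or whether replicates were separate cultures, so p-values cover only the spread among the arrays, which may be technical. The methods give times at which silencing was assayed after transfection but do not tie these arrays to one of them. On each side 2 arrays belong to the array batch labelled J and 1 to the batch labelled M. Values are given in that order, the pair of batch J arrays first and the batch M array last.

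HRAS is a small GTPase that sits below receptor tyrosine kinases such as EGFR. In its GTP-bound form it activates RAF, which activates MEK and then ERK, and it also binds PI3-kinase. A mutant that cannot hydrolyse GTP keeps these branches active without a ligand. ERK induces early transcription factors of the AP-1, EGR and ETS families, growth factors of the EGF family, and its own inhibitors, the dual specificity phosphatases and the Sprouty proteins. In keratinocytes RAS signalling is also known to change adhesion, cytokine release and the terminal differentiation programme.

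The HRAS construct went with a broad change of expression. Of 19775 genes, 1377 (6.96%) were higher and 1568 (7.93%) lower in HRAS cells at an adjusted p under 0.05, called here rose and fell. By at least 1 on the log2 scale, which is a 2-fold change, 131 genes rose (0.662%) and 117 fell (0.592%). In 9.55% of all genes the 3 HRAS arrays all lay above the 3 Mock arrays, and in 11% all below, whatever the test gave. Counts of called members in the gene lists below stand beside 6.96% up and 7.93% down over all genes. Those of members without overlap stand beside 9.55% and 11%. With few calls in a direction a list can lie near these shares, and such counts are descriptions only. Of the 2945 called genes 2941 had the same sign in batch J and in batch M, a count that calls made on these same arrays largely fix.

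The arrays themselves were alike. Array medians lay between 5.095 and 5.121 in HRAS cells and between 5.092 and 5.128 in Mock cells. The pair of batch J arrays correlated at 0.9971 in HRAS cells and 0.9957 in Mock cells, and the closest pair of arrays differed with an SD of 0.173 over genes, so no array repeated another. The 3 prime to 5 prime difference of ACTB, a sign of RNA integrity and of labelling, was 1.49, 1.45 and 0.403 in HRAS cells, against 1.24, 0.995 and 0.476 in Mock cells, and its part in the results was not tested. The 8 measured keratinocyte markers averaged 10.8 to 11 per array in HRAS cells and 10.7 to 10.9 in Mock cells. The 16 measured markers of leukocytes, endothelium, fibroblasts and melanocytes averaged 4.77 to 4.89 in HRAS cells and 4.67 to 4.83 in Mock cells. Of those 16, only COL1A1 (7.33) lay above the median level of all genes (6.1), and only the melanocyte enzyme gene TYR was called, at a difference of 0.28 (adjusted p = 0.0362), a call it lost in several of the alternatives. In RNA of whole cultures, fewer cells of a type and less RNA per cell cannot be told apart.

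The array's single HRAS probe set did not follow the construct. It read 8.37, 8.46 and 8.92 in HRAS cells, against 8.67, 8.66 and 8.99 in Mock cells. The difference was -0.19 (SE 0.10, adjusted p = 0.248), and within batch J both HRAS arrays lay below both Mock arrays. In 3 of 18 alternatives this probe set was called, as lower in HRAS cells. Whether its probes lie in the part of the transcript that the construct carries was not analysed here, so the value does not check the label. By RT-PCR the paper reports overexpressed HRAS mRNA in these cells relative to Mock, and by western blot increased phospho-MAPK. EGFR, the receptor above HRAS, read 10.6, 10.8 and 9.93 in HRAS cells, against 10.95, 10.78 and 10.19 in Mock cells, and its difference of -0.2 was not called (adjusted p = 0.175).

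LCP1 rose most among the brighter genes, those whose mean level reached the median of all genes. LCP1 encodes L-plastin, an actin-bundling protein best known from leukocytes, and it read 9.42, 9.45 and 9.92 in HRAS cells, against 6.58, 6.55 and 7.03 in Mock cells. The HRAS arrays stood far above the Mock arrays in both batches, a 7.33-fold rise (2.87 on the log2 scale, SE 0.166, adjusted p = 2.16e-20). TGM2, the tissue transglutaminase that crosslinks proteins, read 8.29, 8.38 and 8.46 in HRAS cells, against 6.32, 5.94 and 6.12 in Mock cells, a 4.76-fold rise (2.25, SE 0.145, adjusted p = 1.69e-18). IL1A, the alarmin cytokine interleukin 1 alpha, read 10.57, 10.59 and 10.29 in HRAS cells, against 8.78, 8.6 and 8.28 in Mock cells, a 3.81-fold rise (1.93, SE 0.226, adjusted p = 1.33e-09). For both genes the lowest HRAS array was well above the highest Mock array.

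PTPRM, a receptor tyrosine phosphatase of cell contacts, followed with a difference of 1.8, then HMGCS1, the HMG-CoA synthase of the mevalonate pathway (1.77), HBEGF, an EGFR ligand (1.72), and INSIG1, the endoplasmic reticulum protein that holds back the sterol-sensing SREBP complex (1.71). The rest of the 15 largest rises were BEX2 (1.62), KLK7, a kallikrein that cleaves the contacts of shedding keratinocytes (1.55), RFTN1, a lipid raft protein (1.52), VGLL3, a cofactor of TEAD factors (1.52), LIF, a cytokine of the interleukin 6 family (1.5), LINC02551 (1.49), GPR176, an orphan receptor (1.49), and OSR2, a zinc finger factor (1.49). None of these 15 genes overlapped between the groups, as the rule for naming them required. LINC02551 has a pair of probe sets that disagree, and the other one gave -0.174 (adjusted p = 0.18). For LINC02551, 1 probe set alone therefore carries the rise.

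Some genes with low values in Mock cells had larger differences of the array values. SLC1A1, a glutamate transporter, read 7.53, 7.55 and 7.17 in HRAS cells, against 3.94, 3.98 and 4.2 in Mock cells (3.38). HSD11B1, which turns cortisone into cortisol, read 8.7, 8.64 and 8.43 in HRAS cells, against 5.41, 5.09 and 5.25 in Mock cells (3.34). PNMA2 read 7.01, 6.97 and 6.81 in HRAS cells, against 3.84, 3.86 and 3.73 in Mock cells (3.12). FAR2, a fatty acyl-CoA reductase, also stood apart, at a difference of 2.81. No call of detection was used here, so values near the low end of the scale may be background, and no fold is given for them. These 4 genes were named because they led the comparisons with the other constructs or with siEGFR described below.

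The largest fall by the same rule was that of EDIL3, a secreted matrix protein that binds integrins. It read 4.38, 4.2 and 4.07 in HRAS cells, against 8.49, 8.51 and 7.95 in Mock cells (a difference of -4.1 on the log2 scale, SE 0.171, adjusted p = 3.03e-26). The HRAS values are close to the low end of the array scale and may be background. NDN, the imprinted growth suppressor necdin, read 5.0, 4.71 and 4.93 in HRAS cells, against 7.73, 7.65 and 7.47 in Mock cells (-2.74, SE 0.0951, adjusted p = 1.44e-29). IFI44, an interferon-induced gene, read 5.15, 5.21 and 4.81 in HRAS cells, against 7.75, 7.61 and 7.33 in Mock cells (-2.51, SE 0.128, adjusted p = 1.48e-22), and -1.41 with the probe set that the rule of the study's methods picks. DKK1, a secreted inhibitor of Wnt signalling, read 7.43, 7.39 and 7.04 in HRAS cells, against 9.74, 9.68 and 9.64 in Mock cells (-2.4, SE 0.146, adjusted p = 1.62e-19). DKK1 stayed well expressed in HRAS cells, while NDN and IFI44 dropped below the median level of all genes.

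The other large falls were MAMDC2 (-2.41), MPPED2 (-2.38), LRRC7, a scaffold protein (-2.25), PLSCR4, a phospholipid scramblase (-1.98), LIMCH1, an actomyosin regulator (-1.97), ACKR3, a decoy receptor for the chemokine CXCL12 (-1.96), HERC5, the ligase that attaches ISG15 (-1.91), STON1, an endocytic adaptor (-1.84), HMCN1, a matrix protein (-1.77), ID2, which blocks basic helix-loop-helix factors (-1.76), and KRTCAP3 (-1.74). MPPED2 (3.41), STON1 (4.255) and PLSCR4 (4.27) averaged near the low end of the scale in HRAS cells. In the plot of expression by array, the groups keep their distance within each batch even where the batch M array sits apart from the others, as in LCP1 and EDIL3.

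**Figure D1:**
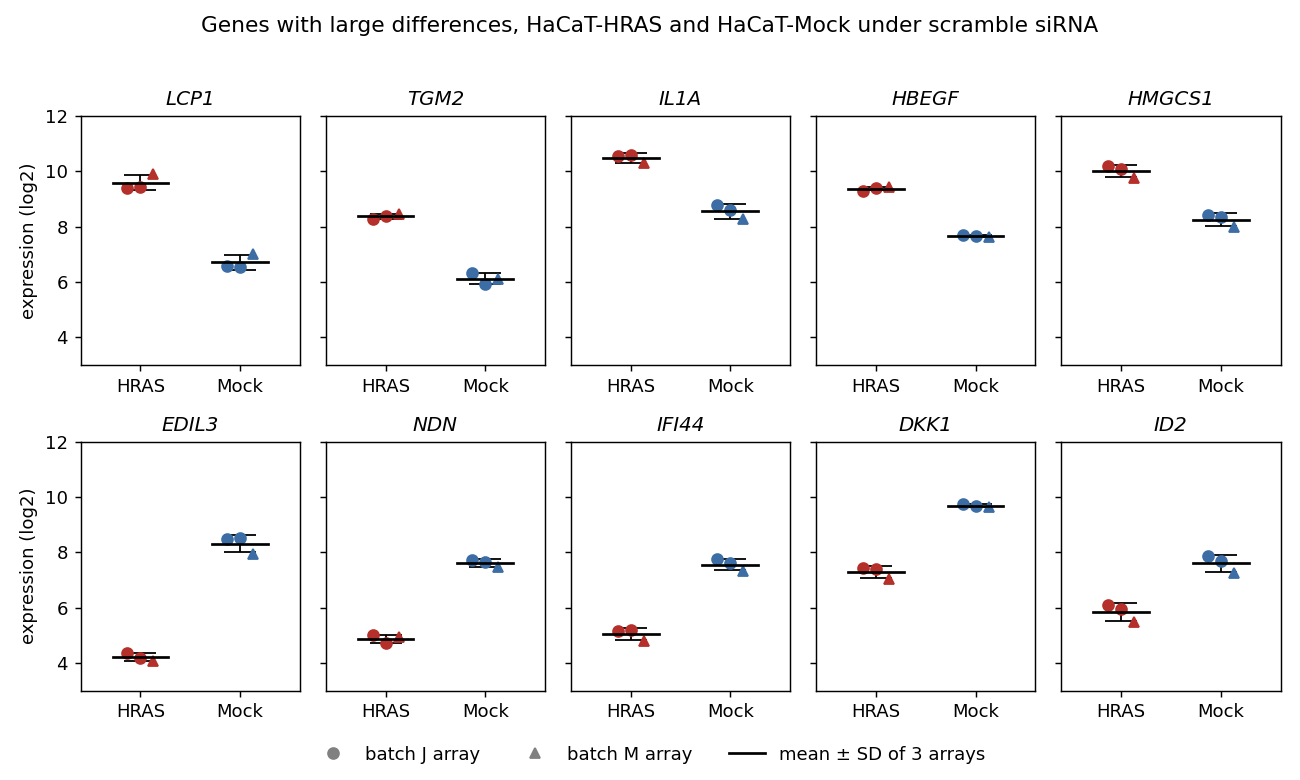
Expression (log2, vertical axis) of 5 genes that rose (upper row) and 5 that fell (lower row) in HaCaT-HRAS, left, and HaCaT-Mock, right, under scramble siRNA. Circles are batch J arrays, triangles batch M arrays, and black lines the mean ± SD of 3 arrays. In every panel the 3 HRAS arrays lie on 1 side of the 3 Mock arrays, and EDIL3 shows the widest gap, at 4.07 to 4.38 in HRAS cells and 7.95 to 8.51 in Mock cells.

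Direct outputs of the RAF, MEK and ERK cascade rose in part. Of 17 measured MAPK feedback inhibitors 5 rose and none fell, with a median difference of 0.255 against -0.00265 over all genes. ERRFI1 (MIG6), which binds and inhibits EGFR itself, read 9.7, 9.63 and 9.5 in HRAS cells, against 8.56, 8.51 and 8.33 in Mock cells (1.14, SE 0.215, adjusted p = 5.20e-05). DUSP5, the nuclear phosphatase of ERK, read 8.87, 8.85 and 8.99 in HRAS cells, against 7.96, 7.84 and 8.1 in Mock cells (0.94, SE 0.129, adjusted p = 8.83e-08). DUSP6, its cytoplasmic counterpart, read 10.79, 10.72 and 10.53 in HRAS cells, against 10.07, 9.94 and 9.83 in Mock cells (0.74, SE 0.212, adjusted p = 0.00963). In all 3 genes the groups stood apart, but DUSP6 lost the call without Mock replicate 2 (adjusted p = 0.051) or without the batch term (adjusted p = 0.14). The Sprouty genes SPRY4 (0.71) and SPRY1 (0.68) were the other 2 that rose, and SPRY1 lost its call without Mock replicate 3 (adjusted p = 0.075). DUSP4 (0.33), SPRY2 (0.24), SPRED2 (0.26), DUSP10 (0.23), IER3 (0.26) and PHLDA1 (0.25) had every HRAS array above every Mock array without passing the test, and DUSP2 (-0.22) had every HRAS array below. The count depends on the estimate of spread. It was 11 of 17 in a model of the 24 siRNA arrays alone.

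Of 19 immediate early, ETS and AP-1 factors 4 rose and none fell. EGR3, an ERK-induced zinc finger factor, read 8.02, 7.99 and 7.41 in HRAS cells, against 6.21, 5.62 and 5.71 in Mock cells, the largest difference of the list (1.96, SE 0.191, adjusted p = 5.14e-12). KLF6 (0.59, adjusted p = 0.00249) and the AP-1 subunits FOSL2 (0.35, adjusted p = 0.00851) and JUNB (0.27, adjusted p = 0.0201) changed far less. JUNB lost its call in 8 of 18 alternatives and FOSL2 in 3, among them without HRAS replicate 2 or Mock replicate 3 (adjusted p up to 0.077). The classical early genes showed no called difference, with EGR1 at 0.31, FOS at 0.24, FOSL1 at -0.25, JUN at -0.1 and MYC at 0.31. The PEA3 factors ETV4 (-0.039) and ETV5 (0.11) were also not called.

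Ligands of the ERBB receptors moved in opposite directions. HBEGF read 9.31, 9.4 and 9.45 in HRAS cells, against 7.69, 7.66 and 7.64 in Mock cells (1.72, SE 0.106, adjusted p = 2.51e-19). TGFA, the EGFR ligand made by keratinocytes themselves, read 10.68, 10.65 and 10.49 in HRAS cells, against 9.89, 9.67 and 9.47 in Mock cells (0.93, SE 0.122, adjusted p = 2.54e-08). NRG1, which binds ERBB3 and ERBB4, read 8.75, 8.75 and 8.23 in HRAS cells, against 10.1, 9.87 and 9.65 in Mock cells (-1.3, SE 0.125, adjusted p = 4.21e-12). The groups did not overlap in any of these 3 genes. EREG, at 0.41, overlapped and was not called, and BTC and EGF were also not called. Of 15 measured receptor tyrosine kinases ERBB3, the kinase-impaired partner receptor, rose (0.43, adjusted p = 2.22e-05). FGFR2 (-0.59), EPHA4 (-0.6) and FGFR3 (-0.43) fell, and EPHA4 was at -1.53 with the probe set rule of the study's methods, while ERBB2 (-0.077), MET (0.24) and AXL (-0.24) were not called.

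In the RAS and MAPK cascade itself the called differences were small. Of 19 measured components 4 rose and 1 fell. The adaptor SHC1 (0.33, adjusted p = 6.34e-05), the exchange factor SOS2 (0.46, adjusted p = 1.80e-04), the GTPase activator RASA2 (0.41, adjusted p = 0.0489) and the ERK-activated kinase RPS6KA3 (0.28, adjusted p = 0.00763) rose, and the GTPase activator RASAL2 fell (-0.39, adjusted p = 0.00113). With the probe set rule of the study's methods, SHC1 (adjusted p = 0.051) and SOS2 (adjusted p = 0.53) were not called, and neither was RASAL2 (adjusted p = 0.17), which lost its call in 5 of 18 alternatives. RASA2 lost its call in 10 of 18, among them without HRAS replicate 1, 2 or 3 or Mock replicate 2 or 3 (adjusted p up to 0.17). On the PI3-kinase side 5 of 13 genes rose and none fell. CCNG2, a FOXO-induced cyclin that slows the cell cycle, read 8.98, 8.94 and 8.47 in HRAS cells, against 7.56, 7.38 and 7.09 in Mock cells (1.45, adjusted p = 1.99e-13). PIK3CD, a catalytic subunit of PI3-kinase, read 7.39, 7.43 and 7.25 in HRAS cells, against 6.4, 6.49 and 6.29 in Mock cells (0.97, adjusted p = 2.23e-13). IRS2 (0.55), PIK3CB (0.26) and FOXO3 (0.23) rose less, and PIK3CB and FOXO3 lost their calls in 7 and 8 of 18 alternatives, PIK3CB without HRAS replicate 1 or 2 or Mock replicate 2 or 3 (adjusted p up to 0.18) and FOXO3 without HRAS replicate 1 or 2 or Mock replicate 2 or 3 (adjusted p up to 0.13).

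Several cytokine genes rose, among them ligands and receptors of the interleukin 1 system. Of 19 measured interleukins and growth cytokines 9 rose and 1, CSF1, fell (-0.48, adjusted p = 0.0146), a call that was lost without HRAS replicate 1 or Mock replicate 3 (adjusted p up to 0.09). IL1B read 10.99, 11.06 and 11.23 in HRAS cells, against 9.54, 9.61 and 9.72 in Mock cells (1.47, SE 0.116, adjusted p = 3.67e-15). IL1R2, the decoy receptor that takes up interleukin 1, read 8.37, 8.32 and 8.13 in HRAS cells, against 6.46, 6.25 and 5.97 in Mock cells (2.05, SE 0.214, adjusted p = 5.05e-11). Together with IL1A, both stood wholly above Mock, so the RNA of the interleukin 1 ligands and of their decoy receptor was high in the same cultures. The antagonist IL1RN (0.78) and the signalling receptor IL1R1 (0.6) also rose, as did IL18 (0.55), IL24 (0.98), LIF (1.5) and VEGFA, the angiogenic growth factor (0.94). IL6 (0.054), IL33 (0.019), IL36G (-0.069) and TSLP (0.048) were not called.

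Among 13 chemokines 2 rose and 1 fell, with a median difference of -0.0872. Over all genes 6.96% rose and 7.93% fell, so the single fall is near the share of all genes. CXCL8, the neutrophil attractant interleukin 8, read 7.17, 7.24 and 6.43 in HRAS cells, against 6.29, 5.65 and 5.26 in Mock cells (1.21, SE 0.352, adjusted p = 0.0108), and lost its call without Mock replicate 2 (adjusted p = 0.066). CXCL1 rose by 0.59 (adjusted p = 0.0104) and lost its call in 3 of 18 alternatives, among them without Mock replicate 3 (adjusted p = 0.077). CXCL6, of the same neutrophil-attracting family, read 4.25, 4.41 and 4.32 in HRAS cells, against 6.07, 5.48 and 5.47 in Mock cells (-1.35, SE 0.280, adjusted p = 2.47e-04). CXCL8 and CXCL6 thus moved in opposite directions, each without overlap.

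AP-1 factors, dimers of FOS and JUN proteins, bind a short palindrome that was searched as TGANTCA on both strands in the RefSeq promoters of GRCh38.p14, from 250 bases before to 50 after each start. It stood in 7.76% of 27305 promoters, in 3 of 13 interleukin and growth cytokine promoters (IL1A, IL1RN and IL11), in 3 of 10 chemokine promoters (CXCL8, CXCL11 and CXCL14) and in 3 of 8 protease promoters (MMP7, MMP10 and PLAUR). MAPK feedback genes (1 of 13) and immediate early factors (1 of 13) held it no more often than all promoters. Of 5 ERBB ligand promoters 1 held it, that of EGF, which was not called. Neither of the 2 called ligands with a promoter held it. These shares are descriptions of short windows. Among the cytokine, chemokine and protease genes with a match, IL1A, IL1RN, CXCL8 and PLAUR rose and MMP10 fell. IL11, CXCL11, CXCL14 and MMP7 were not called. The promoters of IL1A, CXCL8 and PLAUR, 1 from each group, are shown with the match in capitals, and PLAUR, the urokinase receptor, is taken up with the proteases.
IL1A, chr2:112784444-112784743, minus strand: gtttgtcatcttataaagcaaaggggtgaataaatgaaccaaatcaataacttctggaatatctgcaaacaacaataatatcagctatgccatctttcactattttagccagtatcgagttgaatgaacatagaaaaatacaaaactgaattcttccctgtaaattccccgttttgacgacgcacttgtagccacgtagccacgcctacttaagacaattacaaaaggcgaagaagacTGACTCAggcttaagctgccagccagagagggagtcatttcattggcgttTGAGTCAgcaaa
CXCL8, chr4:73740319-73740618, plus strand: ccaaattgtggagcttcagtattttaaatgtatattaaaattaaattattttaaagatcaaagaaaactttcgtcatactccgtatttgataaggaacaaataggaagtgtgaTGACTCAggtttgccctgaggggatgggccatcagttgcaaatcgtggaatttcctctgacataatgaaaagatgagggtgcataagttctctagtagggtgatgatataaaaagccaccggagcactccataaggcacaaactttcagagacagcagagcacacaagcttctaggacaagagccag
PLAUR, chr19:43670120-43670419, minus strand: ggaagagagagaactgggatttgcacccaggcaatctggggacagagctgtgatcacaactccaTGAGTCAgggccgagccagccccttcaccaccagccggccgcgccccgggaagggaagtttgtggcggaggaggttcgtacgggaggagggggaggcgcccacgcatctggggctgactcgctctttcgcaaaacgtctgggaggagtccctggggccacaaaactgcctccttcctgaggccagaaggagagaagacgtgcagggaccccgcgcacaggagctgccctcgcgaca

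Most genes of sterol synthesis rose. Cells make cholesterol from acetyl-CoA through mevalonate and squalene, and the SREBP factors switch the enzymes on together when membranes run short of sterol. Of 16 measured genes 13 rose and none fell, with a median difference of 0.665, and in 11 of them the groups did not overlap. Over all genes 6.96% rose, and the HRAS arrays all lay above the Mock arrays in 9.55%. HMGCS1, the entry enzyme, read 10.2, 10.1 and 9.77 in HRAS cells, against 8.43, 8.35 and 7.98 in Mock cells (1.77, SE 0.114, adjusted p = 1.45e-18). INSIG1 read 11.33, 11.19 and 10.73 in HRAS cells, against 9.57, 9.5 and 9.04 in Mock cells (1.71, SE 0.137, adjusted p = 6.21e-15). FDPS, which makes farnesyl diphosphate, the lipid that anchors RAS proteins in membranes, read 11.76, 11.69 and 11.6 in HRAS cells, against 10.79, 10.76 and 10.65 in Mock cells (0.95, SE 0.0669, adjusted p = 5.42e-17). All 3 genes were higher in every HRAS array than in any Mock array.

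The rise ran along most of the chain. IDI1, the isomerase before FDPS, rose by 0.94, SQLE, the squalene epoxidase, by 0.93, and LSS, which closes the sterol ring, by 0.38. The later enzymes MSMO1 (1.05), NSDHL (0.54), HSD17B7 (0.69), EBP (0.64), SC5D (0.46) and DHCR7 (0.34) rose too, as did the sterol carrier STARD4 (0.75). The mevalonate kinase gene MVK (0.076), MVD (0.2) and the factor gene SREBF2 itself (0.21) did not pass. In DHCR7 and SC5D the groups overlapped across batches and were separate within each batch. The core of the sterol element, searched as TCACNCCAC on both strands, stood in 1 of 15 promoters of the list (SREBF2) and in 1.15% of all promoters.

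In fatty acid synthesis 5 of 10 measured genes rose and none fell. ACSS2, which makes acetyl-CoA from acetate, read 8.57, 8.53 and 9.06 in HRAS cells, against 7.58, 7.57 and 7.88 in Mock cells (1.05, SE 0.126, adjusted p = 2.93e-09). FASN, the fatty acid synthase, read 8.81, 8.85 and 9.56 in HRAS cells, against 8.22, 8.19 and 8.88 in Mock cells (0.65, SE 0.103, adjusted p = 2.65e-06), with groups separate within each batch and overlapping across them. ELOVL6 (0.52), SCD (0.49) and ACLY (0.41) rose, and ACACA (-0.019), FADS2 (-0.19) and SREBF1 (-0.075) were not called. The factor genes SREBF1 and SREBF2 were thus among the members that did not pass.

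**Figure D2:**
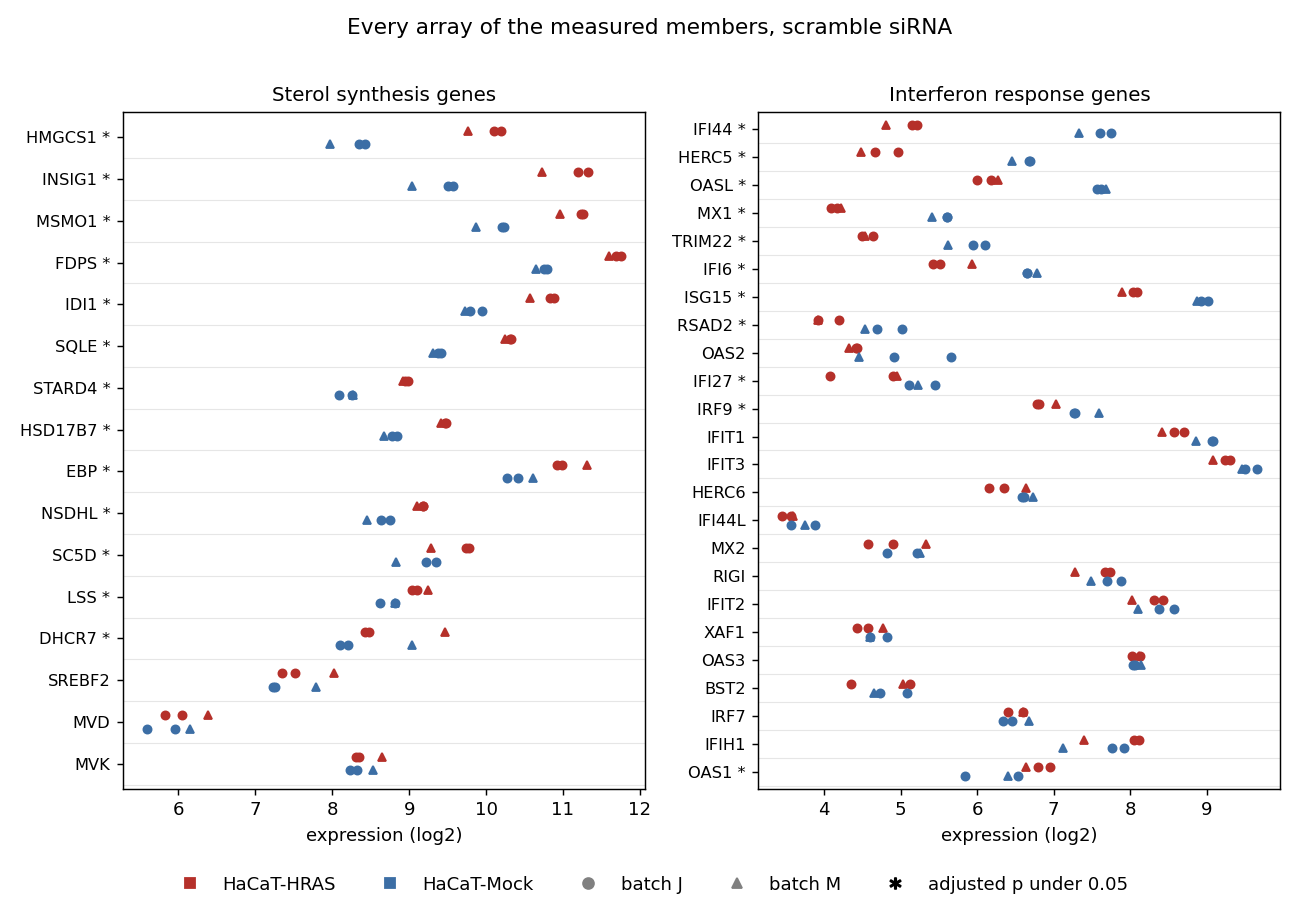
Expression (log2, horizontal axis) on every array for the 16 measured sterol synthesis genes (left) and the 24 measured interferon response genes (right), with HaCaT-HRAS drawn above HaCaT-Mock in each row. Circles are batch J arrays, triangles batch M arrays, and a star marks an adjusted p under 0.05. On the left 13 genes carry a star and all lie to the right in HRAS cells, and on the right 10 starred genes lie to the left in HRAS cells and OAS1 to the right.

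Interferon response genes fell more often than they rose. Type I interferon switches these genes on through its receptor, and their products limit viral growth. Of 24 measured genes 10 fell and 1 rose, with a median difference of -0.387. HERC5 read 4.66, 4.97 and 4.48 in HRAS cells, against 6.68, 6.7 and 6.46 in Mock cells (-1.91, SE 0.121, adjusted p = 7.79e-19). OASL, a member of the oligoadenylate synthetase family, read 6.19, 6.0 and 6.27 in HRAS cells, against 7.56, 7.61 and 7.69 in Mock cells (-1.47, SE 0.122, adjusted p = 2.37e-14). MX1, a GTPase that blocks influenza virus, read 4.09, 4.17 and 4.22 in HRAS cells, against 5.6, 5.61 and 5.41 in Mock cells (-1.38, SE 0.192, adjusted p = 1.18e-07). In these genes and in IFI44 every HRAS array lay below every Mock array.

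ISG15, the ubiquitin-like modifier that HERC5 attaches, read 8.03, 8.09 and 7.89 in HRAS cells, against 9.02, 8.92 and 8.87 in Mock cells (-0.93, SE 0.139, adjusted p = 6.29e-07). TRIM22 (-1.33), IFI6 (-1.08), RSAD2 (-0.74), IFI27 (-0.62) and the transcription factor subunit IRF9 (-0.51) also fell. RSAD2 lost its call without HRAS replicate 2 or Mock replicate 2 (adjusted p up to 0.088) and IRF9 without any 1 of the 6 arrays (adjusted p up to 0.11). IFI27 lost it without HRAS replicate 1 (adjusted p = 0.17), at a difference of -0.332. The list was not uniform. OAS1 read 6.96, 6.8 and 6.64 in HRAS cells, against 6.53, 5.84 and 6.41 in Mock cells and rose (0.54, adjusted p = 0.0432), a call that was lost in 8 of 18 alternatives, among them without HRAS replicate 1 or 2 or Mock replicate 2 or 3 (adjusted p up to 0.37), with a difference of 0.333 without Mock replicate 2. IFIT1 (-0.44), IFIT3 (-0.33) and OAS2 (-0.62) lay below Mock in every array without passing the test, and IFIT2 (-0.1), OAS3 (0.0039), IRF7 (0.040), BST2 (0.019) and IFIH1 (0.26) were not called. Of 17 measured genes of MHC class I presentation, which interferon also induces, 3 rose and none fell, TAP2 (0.28), ERAP1 (0.34) and HLA-E (0.26), each with small differences. The calls of TAP2, ERAP1 and HLA-E were lost in 3, 6 and 10 of 18 alternatives, that of ERAP1 without HRAS replicate 1 or 2 or Mock replicate 2 or 3 (adjusted p up to 0.14), that of HLA-E without any 1 of the 6 arrays, and TAP2 was at 0.0937 with the other probe set rule.

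The core of the interferon response element, searched as AAANNGAAA on both strands, stood in 15 of 18 promoters of the list (83.3%) and in 10.6% of all 27305. Of the 9 called genes with a promoter in the table, 7 held it. The promoters of 4 genes that fell and of OAS1, which rose, are shown with the match in capitals, since both directions occurred with the element present. In IFI44 and HERC5 the matches lie on the other strand, so the capitals read as the reverse complement. In HERC5 and ISG15 a pair of matches overlap.
IFI44, chr1:78649539-78649838, plus strand: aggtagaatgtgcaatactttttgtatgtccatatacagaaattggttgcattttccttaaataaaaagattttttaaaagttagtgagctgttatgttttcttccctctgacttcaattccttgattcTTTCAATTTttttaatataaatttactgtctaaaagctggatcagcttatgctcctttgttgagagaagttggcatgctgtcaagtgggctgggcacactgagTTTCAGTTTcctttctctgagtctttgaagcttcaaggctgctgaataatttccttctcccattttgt
HERC5, chr4:88456869-88457168, plus strand: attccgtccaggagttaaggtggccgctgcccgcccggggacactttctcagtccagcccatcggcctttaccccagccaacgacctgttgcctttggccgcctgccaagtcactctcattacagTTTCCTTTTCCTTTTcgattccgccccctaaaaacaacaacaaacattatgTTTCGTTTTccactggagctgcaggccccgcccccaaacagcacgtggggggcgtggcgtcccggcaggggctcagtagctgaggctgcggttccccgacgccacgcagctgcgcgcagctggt
ISG15, chr1:1013247-1013546, plus strand: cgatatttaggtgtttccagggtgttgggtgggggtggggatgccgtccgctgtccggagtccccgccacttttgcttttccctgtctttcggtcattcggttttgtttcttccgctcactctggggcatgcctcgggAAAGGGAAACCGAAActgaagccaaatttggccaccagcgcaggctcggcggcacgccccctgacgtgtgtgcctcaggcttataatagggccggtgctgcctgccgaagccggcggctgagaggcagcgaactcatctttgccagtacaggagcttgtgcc
MX1, chr21:41420308-41420607, plus strand: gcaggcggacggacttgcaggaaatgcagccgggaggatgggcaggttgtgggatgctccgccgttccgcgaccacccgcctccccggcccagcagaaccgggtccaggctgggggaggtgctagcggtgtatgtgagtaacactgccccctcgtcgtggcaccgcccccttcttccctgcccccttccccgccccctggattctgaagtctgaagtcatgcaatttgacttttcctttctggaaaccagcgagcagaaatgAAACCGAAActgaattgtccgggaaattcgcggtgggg
OAS1, chr12:112906712-112907011, plus strand: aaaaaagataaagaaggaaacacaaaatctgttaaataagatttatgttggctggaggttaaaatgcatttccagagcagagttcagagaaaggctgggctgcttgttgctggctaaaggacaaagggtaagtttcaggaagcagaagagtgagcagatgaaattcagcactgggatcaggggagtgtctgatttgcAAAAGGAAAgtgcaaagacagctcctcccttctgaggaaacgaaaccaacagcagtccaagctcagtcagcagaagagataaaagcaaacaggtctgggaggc

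Genes of keratinocyte differentiation changed in both directions. Basal keratinocytes divide on the basement membrane, suprabasal cells stop dividing, and cornifying cells build an envelope of crosslinked proteins. Of 11 measured basal genes 2 rose and 3 fell. KRT5, the basal keratin, read 9.94, 9.97 and 11.07 in HRAS cells, against 10.71, 10.71 and 11.7 in Mock cells (-0.71, SE 0.158, adjusted p = 6.23e-04). KRT15, a basal keratin of the stem cell compartment, read 10.86, 10.81 and 10.93 in HRAS cells, against 9.91, 9.86 and 9.86 in Mock cells (0.99, SE 0.176, adjusted p = 2.15e-05). The batch M arrays read KRT5 about 1 unit higher in both lines, so the groups overlapped across batches and were separate within each. DST, a hemidesmosome linker, fell with the probe set used (-1.05) and was at -0.138 (adjusted p = 0.26) with the probe set that the rule of the methods picks. LAMB3 rose (0.49), COL7A1 fell (-0.37), and KRT14 (-0.31), ITGA6 (-0.036) and ITGB4 (-0.16) were not called. COL7A1 lost its call without HRAS replicate 1 or Mock replicate 1 or 2 (adjusted p up to 0.13).

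Of 17 suprabasal genes 5 rose and 1 fell, and the 5 were all transcription factors. GRHL3, a grainyhead factor of the skin barrier, read 7.62, 7.64 and 7.76 in HRAS cells, against 6.52, 6.35 and 6.66 in Mock cells (1.17, SE 0.158, adjusted p = 6.77e-08). ZNF750, a driver of terminal differentiation, read 5.63, 5.17 and 4.19 in HRAS cells, against 3.22, 3.21 and 3.17 in Mock cells (1.8, SE 0.244, adjusted p = 6.91e-08), near the low end of the scale in Mock cells. GRHL1 (0.94), KLF4 (0.69) and OVOL1 (0.61) rose too. The suprabasal keratins did not rise. KRT10 fell by a small margin (-0.22, adjusted p = 0.00495), and KRT1 (-0.66), KRT4 (-0.66) and KRT13 (-0.34) lay below Mock in every array without passing.

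Of 18 cornified envelope genes 6 rose and 1 fell. SPRR3, a small proline-rich envelope protein, read 7.31, 7.43 and 7.41 in HRAS cells, against 5.04, 5.13 and 5.32 in Mock cells (2.22, SE 0.114, adjusted p = 1.87e-22). SPRR2B read 6.82, 6.91 and 7.12 in HRAS cells, against 4.93, 4.88 and 4.89 in Mock cells (2.05, SE 0.137, adjusted p = 6.09e-18), and as a member of a family of near-identical genes its probes may read its relatives. FLG, the precursor of filaggrin, read 10.18, 10.23 and 9.89 in HRAS cells, against 11.27, 11.16 and 10.86 in Mock cells (-1.0, SE 0.144, adjusted p = 3.24e-07). SPRR genes and filaggrin thus moved in opposite directions, each without overlap. CSTA (0.91), SPRR1B (0.69), LCE3D (0.53) and PPL (0.42) rose, and IVL (-0.17), TGM1 (-0.041) and LORICRIN (-0.35) were not called. Of 10 wound keratins and alarmins RNASE7, an antimicrobial ribonuclease (1.79, adjusted p = 4.13e-19), and S100A7, or psoriasin (1.22, adjusted p = 1.09e-06), rose. S100A7 averaged 3.98 and RNASE7 4.44 in Mock cells, near the low end of the scale. KRT16 (0.39), S100A8 (-0.49) and S100A9 (0.31) were not called.

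Simple epithelial and mesenchymal genes moved in both directions, with 4 of 16 up, 4 down and a median of 0.00433. The simple keratins KRT18 (0.66), KRT8 (0.63) and KRT19 (0.69) rose together with FN1, or fibronectin (0.78). CDH2, or N-cadherin, read 8.29, 8.32 and 7.92 in HRAS cells, against 9.42, 9.2 and 9.03 in Mock cells (-1.04, SE 0.112, adjusted p = 1.16e-10), and the mesenchymal factors TWIST1 (-0.7) and SNAI2 (-0.59) and the matrix protein SPARC (-0.38) fell with it. VIM was at -0.24 and ZEB1 at -0.0055, neither called. Of 19 cell junction genes the tight junction genes OCLN (0.9), CLDN4 (0.83) and CLDN7 (0.34) rose. The connexin gene GJB6 (-0.62) and the plakophilin gene PKP3 (-0.25) fell, the call of PKP3 being lost without any 1 of the 6 arrays. CDH1, or E-cadherin, lay above Mock in every array and did not pass (0.43, adjusted p = 0.259).

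Matrix and integrin genes fell more often than they rose, 7 against 3 of 16, though the list's median was -0.0382. TNC, or tenascin C, a matrix protein of wounds, read 6.81, 6.61 and 6.1 in HRAS cells, against 8.17, 7.86 and 7.72 in Mock cells (-1.41, SE 0.114, adjusted p = 8.87e-15). LAMB1, a laminin chain, read 9.1, 9.06 and 8.22 in HRAS cells, against 8.04, 7.81 and 6.92 in Mock cells (1.21, SE 0.128, adjusted p = 8.52e-11). Both stood apart from Mock, in opposite directions. ITGA2 (0.87) and ITGA5 (0.4) rose, and EDIL3, HMCN1, COL4A1 (-0.51), COL4A2 (-0.35), ITGB5 (-0.22) and LAMC1 (-0.2) were the other falls. ITGB5 lost its call without any 1 of the 6 arrays, LAMC1 without HRAS replicate 1 or 3 or Mock replicate 1, 2 or 3 (adjusted p up to 0.16), and ITGA5 without HRAS replicate 3 or Mock replicate 1 (adjusted p up to 0.12).

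The protease genes moved in both directions. The plasminogen activators PLAU, or urokinase, and PLAT, or tissue activator, and the urokinase receptor PLAUR all rose, and of the matrix metalloproteases 3 fell and 1 rose. PLAUR read 9.6, 9.64 and 9.92 in HRAS cells, against 8.41, 8.43 and 8.62 in Mock cells (1.23, SE 0.101, adjusted p = 1.24e-14). PLAU read 10.08, 10.14 and 10.3 in HRAS cells, against 9.38, 9.22 and 9.39 in Mock cells (0.85, SE 0.0950, adjusted p = 4.30e-10). MMP2, or gelatinase A, read 7.21, 7.19 and 7.62 in HRAS cells, against 8.28, 8.2 and 8.77 in Mock cells (-1.08, SE 0.101, adjusted p = 1.31e-12). PLAT was at 1.33. MMP9, or gelatinase B, rose (1.12), MMP10 (-1.03), MMP13 (-0.77) and the inhibitor TIMP2 (-0.67) fell, and MMP1 (-0.58) and MMP14 (0.17) were not called. This made 4 rises and 4 falls among 16 measured genes. MMP10 lost its call without Mock replicate 1 (adjusted p = 0.12), and MMP13 without HRAS replicate 1 (adjusted p = 0.067).

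Of 19 genes of the TGF-beta and BMP pathways 9 fell and 1 rose. BMP signals through SMAD factors that switch on the ID genes and the inhibitor SMAD6. ID1 read 8.97, 9.0 and 9.13 in HRAS cells, against 10.19, 10.28 and 10.46 in Mock cells (-1.28, SE 0.142, adjusted p = 2.92e-10). ID2 read 6.1, 5.95 and 5.49 in HRAS cells, against 7.86, 7.7 and 7.26 in Mock cells (-1.76, SE 0.129, adjusted p = 2.66e-16). SMAD6 read 4.95, 4.93 and 5.06 in HRAS cells, against 6.72, 6.82 and 6.44 in Mock cells (-1.68, SE 0.142, adjusted p = 4.59e-14). In all 3 genes the HRAS arrays lay below the Mock arrays, and ID3 (-0.66) and the ligand gene BMP4 (-0.73) fell as well. On the TGF-beta side the ligand gene TGFB2 (-1.42), the receptor TGFBR2 (-0.4), PMEPA1 (-0.61, or -0.388 with the other probe set rule) and the matrix protein TGFBI (-0.46) fell, and the co-receptor TGFBR3 rose (0.92). SMAD7 (0.3), SMAD3 (0.1) and TGFB1 (0.16) were not called.

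Most proliferation genes did not pass the test. Of 16 S phase genes 5 fell and none rose, with a median of -0.12. GINS2, a subunit of the replicative helicase, read 9.0, 8.9 and 8.83 in HRAS cells, against 9.81, 9.75 and 9.71 in Mock cells (-0.85, SE 0.0921, adjusted p = 1.67e-10). MCM6 (-0.36), MCM2 (-0.34), MCM3 (-0.25) and RRM1 (-0.33) fell by less, and PCNA (0.060) and TYMS (-0.058) were not called. Of 18 G2 and M phase genes BIRC5 (-0.43), CENPE (-0.44) and CENPF (-0.3) fell and none rose. The list's median was -0.161, against -0.00265 over all genes. MKI67 (0.017), its highest member, and CCNB1 (-0.070) were not called. The calls of CENPE and CENPF were lost in 6 and 7 of 18 alternatives. Without the batch term only 2 S phase genes were called.

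Of 17 G1 and p53 target genes 4 rose and 1 fell. CDKN1A, the CDK inhibitor p21, read 8.93, 8.93 and 9.28 in HRAS cells, against 7.99, 8.02 and 8.17 in Mock cells (0.99, SE 0.0948, adjusted p = 3.50e-12). GDF15, a stress-induced cytokine, read 6.03, 6.04 and 5.57 in HRAS cells, against 4.17, 4.16 and 4.28 in Mock cells (1.68, SE 0.144, adjusted p = 7.17e-14). MDM2 (0.62, or 0.378 with the other probe set rule) and CCND2 (0.43) rose, and TP53I3, another p53 target, fell (-0.37, adjusted p = 8.64e-04). CCND1 (0.067) and CDKN2A (-0.074) were not called. Among 15 apoptosis regulators 6 rose and 1 fell. The survival genes BCL2A1 (1.15), CFLAR (0.5) and BCL2L1 (0.44) rose. BCL2A1 averaged 3.68 in Mock cells, near the low end of the scale. The death receptor genes TNFRSF10B (0.57) and TNFRSF10A (0.44) and the death-promoting gene BIK (0.26) rose too. Their ligand gene TNFSF10, or TRAIL, fell (-0.7). The calls of BIK, TNFRSF10A and TNFSF10 were lost in 8, 6 and 5 of 18 alternatives, that of BIK without HRAS replicate 3 or Mock replicate 1 or 3 (adjusted p up to 0.11), that of TNFRSF10A without HRAS replicate 1, 2 or 3 or Mock replicate 2 (adjusted p up to 0.2) and that of TNFSF10 without HRAS replicate 1 or 3 or Mock replicate 1 (adjusted p up to 0.074).

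Smaller groups changed unevenly. Of 20 glycolysis and hypoxia genes 6 rose and 3 fell, with ALDOC (0.74), ENO2 (0.76) and HK2 (0.5) up and EGLN3 (-0.46) and PFKFB3 (-0.34) down, while GAPDH (-0.0055) and LDHA (-0.049) were not called. Of 15 ATF4 stress and amino acid genes 4 rose and 4 fell. SLC7A5 (-0.61) and SLC3A2 (-0.72), the 2 chains of the large neutral amino acid transporter, and the cystine transporter SLC7A11 (-0.67) fell, and XBP1 (0.59), TRIB3 (0.59) and the chaperone HSPA5 (0.37, or 0.578 with the other probe set rule) rose. Of 15 Notch genes the ligand genes JAG1 (-0.52) and JAG2 (-0.67) and NRARP (-0.21) fell and HES2 (0.44) and DLL1 (0.29) rose. NRARP lost its call in 7 of 17 alternatives, among them without HRAS replicate 1 or 3 or Mock replicate 2 or 3 (adjusted p up to 0.081), and DLL1 in 8 of 18, among them without HRAS replicate 1, 2 or 3 or Mock replicate 3 (adjusted p up to 0.22). Of 12 eicosanoid enzymes PLA2G4A, which frees arachidonic acid (1.33), and PTGS2, or COX-2 (1.03), rose and PTGES2 fell (-0.23). PTGS2 averaged 3.475 in Mock cells, near the low end of the scale, and was at 0.268 with the other probe set rule. PTGES2 lost its call in 6 of 17 alternatives, among them without HRAS replicate 1 or Mock replicate 2 or 3 (adjusted p up to 0.094). Of 5 AP-2 factors TFAP2C (0.5, adjusted p = 1.51e-05) and TFAP2A (0.2, adjusted p = 0.0111) rose, TFAP2A losing the call in 6 of 18 alternatives, among them without HRAS replicate 2 or Mock replicate 3 (adjusted p up to 0.12). Of 14 housekeeping genes 1, the transferrin receptor gene TFRC, was called (0.22), and it lost the call in 8 of 18 alternatives, among them without HRAS replicate 2 or 3 or Mock replicate 2 or 3 (adjusted p up to 0.095).

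**Figure D3:**
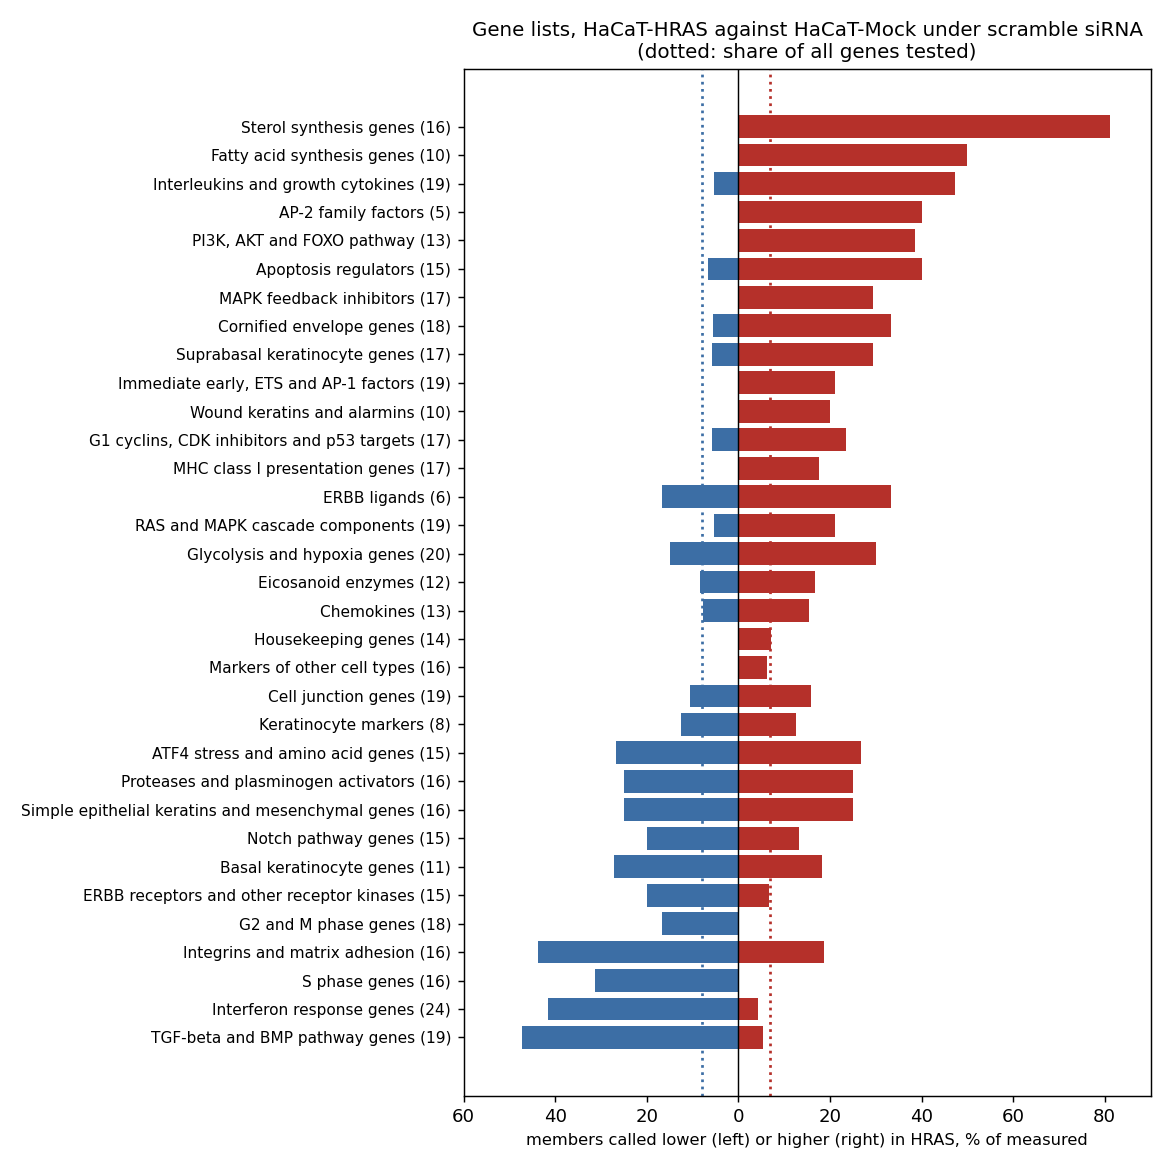
Share of measured members (in parentheses) called higher (red, right) or lower (blue, left) in HaCaT-HRAS than in HaCaT-Mock under scramble siRNA for each gene list, horizontal axis in percent. Dotted lines mark the share over all 19775 genes, 6.96% higher and 7.93% lower. Sterol synthesis reaches furthest to the right, with 13 of 16 members, and TGF-beta and BMP genes furthest to the left, with 9 of 19.

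The same pair of lines was also measured under PBS and under siEGFR, the siRNA against EGFR, on other arrays, 3 per line and treatment. These contrasts share no array with the scramble comparison but share the model and its batch terms. Under PBS the HRAS arrays were of batches J, J and M and the Mock arrays of J, J and E. There 1332 genes rose (6.74%) and 1847 fell (9.34%), and under siEGFR 1589 rose (8.04%) and 1495 fell (7.56%). Of the genes called under scramble siRNA, 2162 were called in the same direction under PBS and 1 in the opposite direction, which is 73.4% of the scramble calls and 68% of the PBS calls. Under siEGFR 2076 were called in the same direction and none in the opposite one, 70.5% of the scramble calls and 67.3% of the siEGFR calls. Of the 248 genes past the 2-fold size, 247 had the same sign under PBS and 248 under siEGFR.

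The difference between the scramble and the PBS contrast was tested itself, and no gene passed by limma (0%), with 841 genes at an unadjusted p under 0.05. Other settings of the model gave up to 38 genes. EDIL3 differed by -4.1 under scramble siRNA, -4.03 under PBS and -4.54 under siEGFR, and LCP1 by 2.87, 3.17 and 2.91. HMGCS1 differed by 1.77, 1.87 and 1.29, INSIG1 by 1.71, 1.55 and 1.0, and DUSP6 by 0.74, 0.97 and 1.68, in the same order. Sterol synthesis had 13 genes up and none down in each of the 3 contrasts. Interferon response genes fell in 10, 11 and 12 cases, MAPK feedback inhibitors rose in 5, 7 and 10, and immediate early factors in 4, 4 and 10. Chemokines rose in 2, 0 and 2 cases and fell in 1, 1 and 2. CXCL8 differed by 1.21, 0.31 and 1.8, CXCL1 by 0.59, 0.32 and 1.13, and CXCL6 by -1.35, -1.72 and -1.37. Under PBS neither CXCL8 (adjusted p = 0.696) nor CXCL1 (adjusted p = 0.25) was called. Whether the siEGFR and scramble contrasts differ was not tested.

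**Figure D4:**
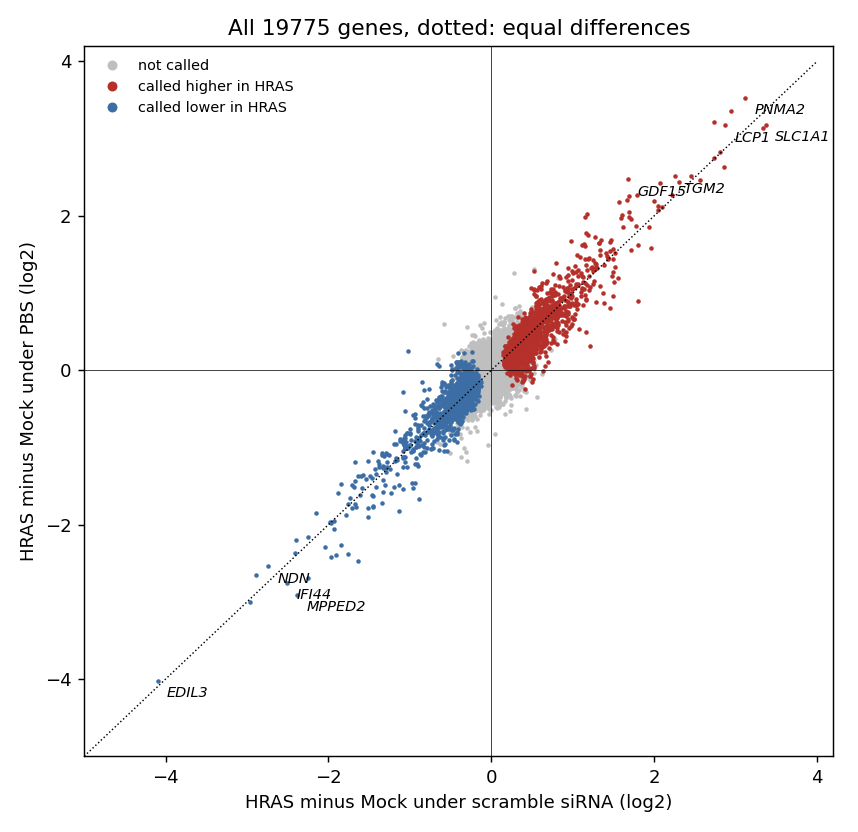
Log2 difference HaCaT-HRAS minus HaCaT-Mock under scramble siRNA (horizontal axis) and under PBS (vertical axis), 1 point per gene, 19775 genes, with the calls of the scramble comparison in colour. The dotted line marks equal differences. Genes with large differences lie near that line on both sides, from EDIL3 at the lower left to SLC1A1 and PNMA2 at the upper right.

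HRAS cells were also set against the cells with the other constructs under the same siRNA, which use the same HRAS arrays. Against HaCaT-PIK3CA, which overexpresses an activated PI3-kinase subunit, 1174 genes were higher in HRAS cells (5.94%) and 1258 lower (6.36%). Against HaCaT-EGFR, which overexpresses the receptor, 1467 were higher (7.42%) and 1989 lower (10.1%). LCP1 averaged 9.59 in HRAS cells, 7.6 in PIK3CA cells, 7.02 in EGFR cells and 6.72 in Mock cells. EDIL3 averaged 4.22, 8.29, 8.93 and 8.32, and HBEGF 9.38, 7.66, 7.74 and 7.66, in the same order. In all 3 genes HRAS cells differed from both constructs, with adjusted p-values of at most 3.52e-14 against either construct.

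In some genes the EGFR cells lay near the HRAS cells or beyond them. ZNF750 averaged 4.99 in HRAS cells, 3.34 in PIK3CA cells, 4.64 in EGFR cells and 3.2 in Mock cells. The difference of ZNF750 between HRAS and EGFR cells was 0.35 (adjusted p = 0.408), and that between HRAS and PIK3CA cells 1.66 (adjusted p = 6.21e-07). KRT15 averaged 10.87 in HRAS cells, 11.5 in EGFR cells and 9.88 in Mock cells, so it was lower in HRAS cells than in EGFR cells (-0.63, adjusted p = 0.00635). ID2 averaged 5.85 in HRAS cells, 8.71 in EGFR cells and 7.61 in Mock cells, so the constructs lay on opposite sides of Mock. Sterol synthesis genes were higher in HRAS cells than in PIK3CA cells in 12 of 16 cases and than in EGFR cells in 12 of 16.

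The calls were not spread evenly over the genome. On chromosome 16, 22.2% of tested genes fell and 3.03% rose, and on chromosome 9, 21.8% fell and 3.99% rose, against 7.93% and 6.96% of all genes. Chromosomes 17 (15.3% fell), 13 (12.7%) and 11 (10.9%) came next. The falls on chromosome 16 lay together. Among those brighter genes, ordered along the chromosome by RefSeq (GRCh38.p14), 213 neighbours from VPS35 to DRC4 had a median difference of -0.347. Of these, 199 were negative, 147 fell and 5 rose. The other 248 such genes, from POLR3K to SHCBP1, had a median of -0.0195, with 24 down and 12 up.

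The median of the chromosome 16 stretch was -0.33 in batch J and -0.371 in batch M, and -0.376 under PBS and -0.312 under siEGFR on other arrays. Over the same genes PIK3CA cells minus Mock cells gave -0.0764 and EGFR cells minus Mock cells 0.111, contrasts that share the Mock arrays. Chromosome 9 held 5 shorter stretches, of which the longest, 56 genes from FNBP1 to PHPT1, had a median of -0.312 with 36 genes down and none up. A last one of 19 genes lay on chromosome 17, from MGC70870 to WDR81 (median -0.216). Stretches were marked where the running median over 31 neighbouring genes was below -0.2 for at least 10 genes, a rule chosen after the values were seen, and none was found on the high side. They held 668 of the genes tested, of which 257 fell and 15 rose, and outside them 1311 fell and 1362 rose. Of the called list genes described above, TNC, PTGES2 and NRARP lie in the chromosome 9 stretches and MMP2, GINS2 and SLC7A5 in that of chromosome 16. The part of these stretches in the differences of those genes was not tested.

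**Figure D5:**
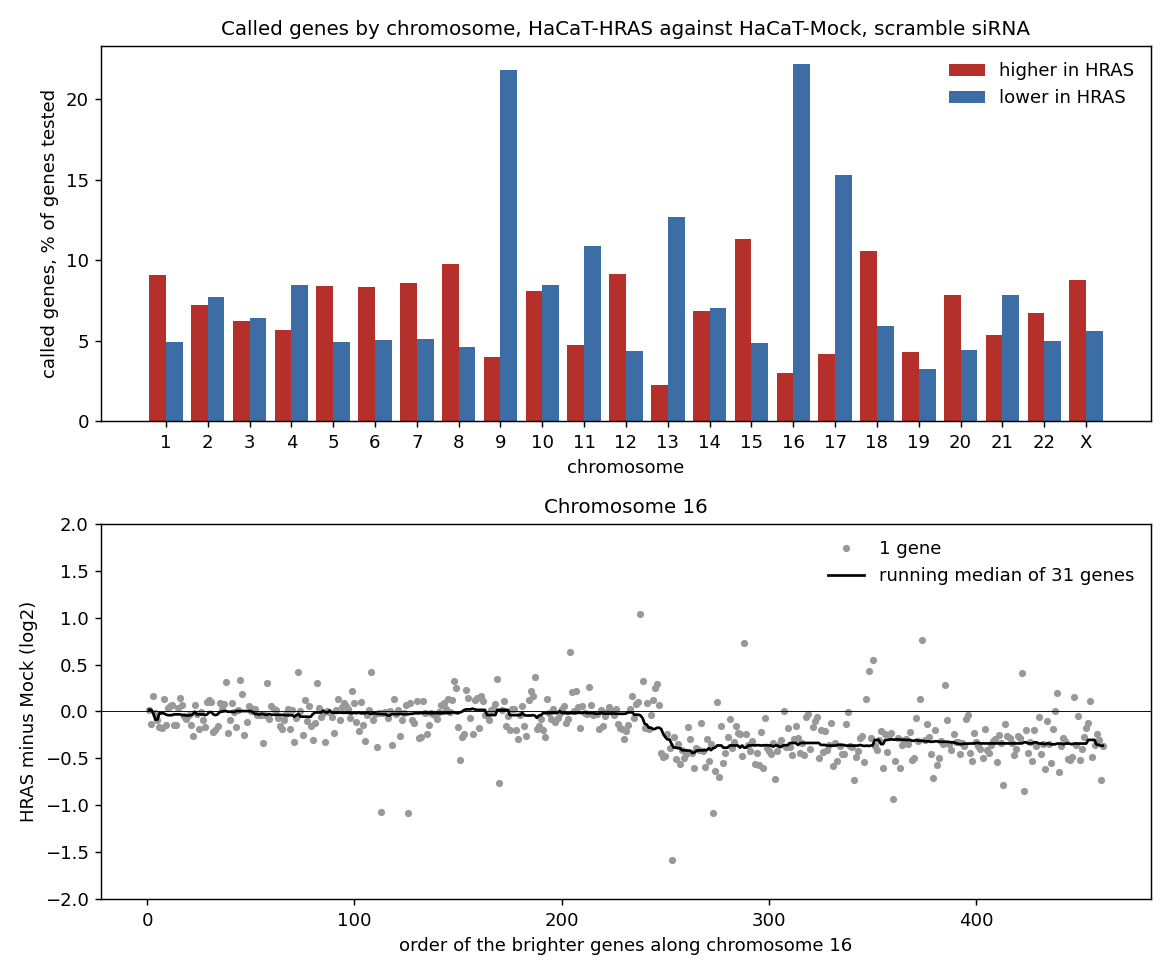
Upper panel, share of tested genes called higher (red) or lower (blue) in HaCaT-HRAS than in HaCaT-Mock under scramble siRNA, by chromosome, vertical axis in percent. Lower panel, log2 difference HRAS minus Mock (vertical axis) of the 461 brighter genes of chromosome 16 in their order along it (horizontal axis), with the running median of 31 genes. The line stays near 0 over the left part and near -0.35 over the right part.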

How the data were processed

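Total RNA was hybridised to Affymetrix U133 Plus 2.0 arrays. The authors deposited log2 values, 1 for each probe set. The methods of the study name fRMA normalisation, pSVA batch correction and the removal of outlying arrays, and the submitters' processing notes name affy. The sources used here do not say which steps went into the deposited values, and name no genome build for the arrays. The labels name 2 labelling kits without saying which array had which. Group and batch were taken from the labels. Arrays give no read depth, and their number limits the precision.

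Probe sets with 1 gene symbol in the platform annotation (41097 of 54675) gave 19775 genes, each read from its brightest probe set by the mean of the 89 HaCaT construct arrays. A model with a term for each group and for batch was fitted to those 89 arrays with limma 3.58.1 in R 4.3.3 (47 residual degrees of freedom), with Benjamini-Hochberg adjustment over all genes, and tested on simulated data. No low values were filtered out. Genes named are HRAS, the 15 largest non-overlapping rises and falls among called genes at or above the median level, per list the 4 members of lowest adjusted p, and the 5 called genes with the lowest adjusted p in the other contrasts. Other list members are given to describe their list. The comparison, lists and tests were chosen with earlier results of these data known. Promoters came from RefSeq, and 129 of 157 named genes had one. Alternatives changed the arrays fitted, the batch term, the probe set, the normalisation, the array weights and the filter on dim genes, and left out each array in turn.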

Additional observations from a re-analysis of the deposited data

How the results depend on the processing

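The directions held widely, which calls made on these same arrays largely fix. They were followed in HRAS and in the called genes that were named by rule or belonged to a list. Every alternative refitted the same arrays or part of them, so a kept direction is no independent support. Each had 18 alternatives, or 17 where a gene was not in one of them. Of the values, 3396 kept their direction and side of the threshold, 305 lost and 3 gained the call. LINC02551 alone turned, to -0.174 with the probe set chosen by the ratio of its deviation between conditions to that between replicates. The 3 gains were all those of HRAS, the only uncalled gene followed. They do not show how often uncalled genes gain a call. Most of the losses came without the batch term (66), with batch J arrays alone (54) and from leaving out 1 array (16 to 26 for each array left out), and 40 genes lost the call without at least 1 array. Counts of called genes moved more than directions. Without the batch term 1359 genes were called under scramble siRNA, 1031 against PIK3CA cells, 1719 against EGFR cells, 1962 under PBS and 1496 under siEGFR. Batch J arrays alone gave 1524, 1227, 1758, 1588 and 1734 in the same order. Array weights gave 5099 under scramble siRNA, 4746 against PIK3CA cells, 5530 against EGFR cells, 5272 under PBS and 38 for the difference between the scramble and PBS contrasts. Fits of only the arrays compared gave 1863 under PBS and 2 for that difference, and the 24 siRNA arrays gave 3654 against PIK3CA cells. With only the brighter genes tested, 134 passed the 2-fold size and 1 the difference, as 1 did with an intensity trend.

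Leaving out 1 array gave 2269 (without Mock replicate 2) to 2607 genes under scramble siRNA, 246 to 259 past the 2-fold size, 1851 to 2420 against PIK3CA cells, 2788 to 3437 against EGFR cells, 3137 to 3154 under PBS, 3056 to 3076 under siEGFR and 0 for the difference. Without the genes of the low chromosome stretches, an alternative chosen after seeing the data, 2624 genes were called.

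Among the scramble arrays compared, the labels number only those of batch J, and replicate 3 stands here for the batch M array. Deviations of same-numbered arrays from their group means correlated at 0.523 and 0.234, those of the batch M arrays at 0.756, and those of crossed batch J arrays at 0.217 and 0.517, so the arrays share only a number. A replicate block gave 2318 genes under scramble siRNA and 1841 under siEGFR in the arrays compared, and 4213 and, against PIK3CA cells, 3698 in the 24 siRNA arrays.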
